A study of Arabidopsis thaliana with 8 samples.

Results

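Tetrapyrroles are the ring pigments from which plants make chlorophyll, heme and siroheme. Synthesis runs in the plastid, from glutamate bound to its transfer RNA through 5-aminolevulinic acid to protoporphyrin. There it divides into an iron branch towards heme and a magnesium branch towards chlorophyll, whose ring finally receives a phytyl tail. The early steps set how much precursor enters the pathway, and free intermediates of the magnesium branch are light-reactive.

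The results concern 4 genes of this pathway in Arabidopsis thaliana. They were chosen by name, as the probes whose platform annotation gives exactly 1 gene, that gene being HEMA3, AT5G63290, CHLM or CHLP. Each gene had 1 such probe, so 4 of the 3439 probes on the array and of the 692 with 1 gene name are described. The choice was made with earlier results of these data known. In pathway order, HEMA3 (AT2G31250) encodes a glutamyl-tRNA reductase, the enzyme class of the first committed step. AT5G63290 is described as coproporphyrinogen oxidase-like, which would place it on the way to protoporphyrin, and the gene table gives it no symbol. CHLM (AT4G25080) encodes magnesium-protoporphyrin IX methyltransferase, and CHLP (AT1G74470) encodes geranylgeranyl reductase, which makes the phytyl group used for chlorophyll and for tocopherols.

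High CO2 plants were wild type of ecotype Columbia 0 held for 1 d in air with 1% CO2 by volume (4 arrays). They were compared with the same wild type at normal CO2, labelled 0 d (4 arrays). All arrays measured total RNA, and the labels name no mutant, transgene or other agent. No group stayed at normal CO2 for the same day, so the gas, the extra day and the move cannot be told apart.

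Intensities were deposited on a linear, relative scale that ends at 100 on every array. Array medians lay between 0.212 and 0.28, and 133 to 219 probes per array were listed at 0. Because the labels do not tie the arrays to separate plants, the p-values reflect only array-to-array spread, which may be technical. The tissue is not labelled, and 0 of the 9 root, senescence and dark markers looked for had a probe with 1 gene name. In whole tissue, fewer cells of a type and less RNA per cell cannot be told apart. Arrays 1 and 2 of a group (the first set below) and arrays 3 and 4 (the second set) were more alike, with correlations across probes of 0.893 to 0.97, than arrays of a group from different sets (0.855 to 0.902). What distinguishes the sets is not labelled. That arrays of the same numbers in both groups belong to the same set is assumed wherever a change is given by set.

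After the day at high CO2 the pathway genes did not move together. Transcripts of HEMA3 and AT5G63290, whose descriptions place them before protoporphyrin, rose about as much as CHLM of the magnesium branch fell. CHLP of the phytyl supply did not pass the test. Of the 4 genes, 2 rose and 1 fell in the limma comparison (two-sided, Benjamini-Hochberg adjustment over 3154 tested probes, threshold 0.05). The fall, that of CHLM, did not pass when the likeness of arrays 1 and 2, and of arrays 3 and 4, was modelled (array pair as a random block). Change was common on these arrays: 32.6% of the tested probes passed, 14.3% higher and 18.3% lower. All 4 genes were above 0 on all 8 arrays. For 3 of them the groups did not overlap, against 38.7% of the 2932 probes above 0 on every array.

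**Figure D1:**
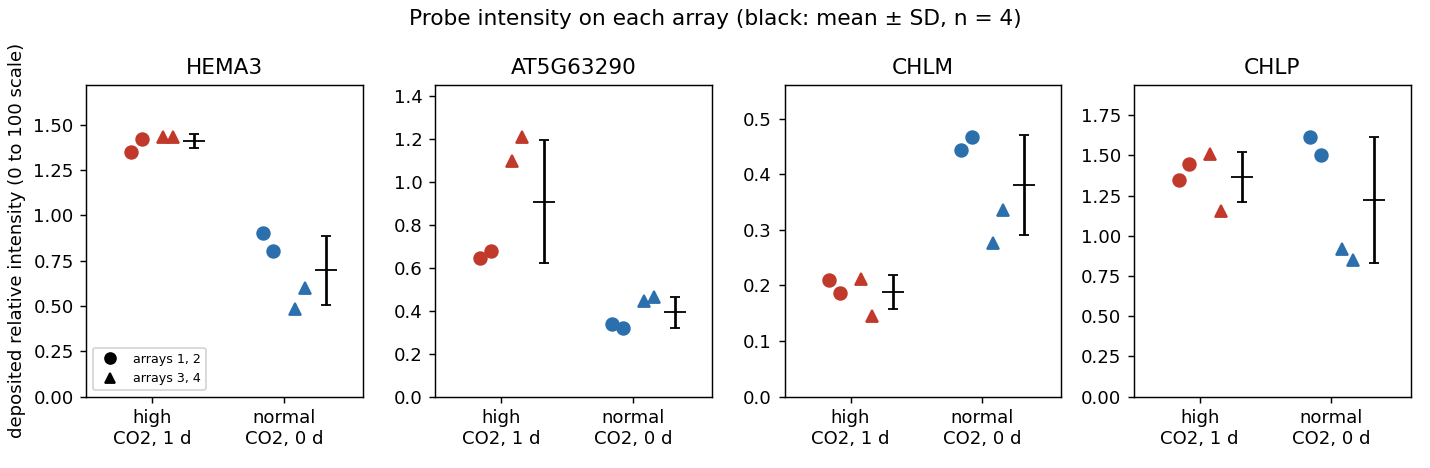
Deposited relative intensity of the 4 probes on each array, in pathway order, with circles for arrays 1 and 2, triangles for arrays 3 and 4, and the mean ± SD of 4 arrays in black. The high CO2 points lie above all normal CO2 points for HEMA3 and AT5G63290 and below them for CHLM, while the groups overlap for CHLP.

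HEMA3 opened the pathway with a rise. Its intensity was 1.35, 1.42, 1.43 and 1.43 on high CO2 arrays 1 to 4, against 0.904, 0.804, 0.485 and 0.599 on normal CO2 arrays 1 to 4. Every high CO2 array was above every normal one, and the high CO2 arrays were close to each other while the normal ones spread widely. The means were 1.41 ± 0.0389 at high CO2 and 0.698 ± 0.19 at normal CO2 (SD, n = 4 each). On the normalized log2 scale it rose by 0.95 ± 0.18 (SE; limma, adjusted p = 0.00672), which is a 1.94-fold higher level.

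HEMA3 was also more even than most probes at high CO2. Its log2 SD over the 4 high CO2 arrays was 0.07, and only 2.98% of the tested probes had a smaller one, where the median SD was 0.37. At normal CO2 its log2 SD was 0.32, against a median of 0.29 over all probes. The lower normal values were those of arrays 3 and 4, and the rise was 0.76 log2 units in the first set and 1.15 in the second. The difference between the sets, 0.39 ± 0.21 (SE), did not pass (limma, adjusted p = 0.286, in a fit with an interaction term that called 9.26% of all probes). HEMA3 belongs to a small family in which HEMA1 is the isoform known for supplying green tissue. Probe sequences were not used here, so which HEMA transcripts the probe detects was not tested.

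AT5G63290, the coproporphyrinogen oxidase-like gene, also rose. Its intensity was 0.644, 0.679, 1.10 and 1.21 on high CO2 arrays 1 to 4, against 0.338, 0.320, 0.443 and 0.464 on normal CO2 arrays 1 to 4. The groups did not overlap, and in both of them arrays 3 and 4 were higher than arrays 1 and 2. The means were 0.907 ± 0.287 at high CO2 and 0.391 ± 0.0726 at normal CO2 (SD, n = 4 each), and the rise was 1.13 ± 0.23 log2 units (SE; limma, adjusted p = 0.00904) or 2.19-fold. Although the levels differed between the sets, the change was similar in them, with 1.21 in the first and 1.06 in the second (difference -0.16 ± 0.17 SE; limma, adjusted p = 0.588).

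CHLM, which methylates magnesium protoporphyrin after the chelatase has inserted the metal, moved the other way. Its intensity was 0.209, 0.187, 0.212 and 0.145 on high CO2 arrays 1 to 4, against 0.444, 0.467, 0.277 and 0.337 on normal CO2 arrays 1 to 4. Every high CO2 array was below every normal one, with the lowest value on high CO2 array 4 and the narrowest gap between high array 3 and normal array 3. The means were 0.188 ± 0.031 at high CO2 and 0.381 ± 0.0899 at normal CO2 (SD, n = 4 each). The probe was dim: it lay below the array median on each high CO2 array and above it on each normal one. The change was -1.07 ± 0.23 log2 units (SE; limma, adjusted p = 0.0102), so the normal CO2 level was 2.10-fold that at high CO2. With the array pair as a random block the same change did not pass (limma, adjusted p = 0.0536). It was -0.96 in the first set and -1.19 in the second (difference -0.23 ± 0.30 SE; limma, adjusted p = 0.646).

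CHLP, at the phytyl end of the pathway, showed no change that could be told from the spread. Its intensity was 1.34, 1.44, 1.51 and 1.15 on high CO2 arrays 1 to 4, against 1.62, 1.50, 0.921 and 0.848 on normal CO2 arrays 1 to 4. The groups overlapped, because normal arrays 1 and 2 were above the high CO2 arrays of their set and normal arrays 3 and 4 were below all high CO2 arrays. The means were 1.36 ± 0.156 at high CO2 and 1.22 ± 0.393 at normal CO2 (SD, n = 4 each). The change was 0.07 ± 0.24 log2 units (SE; limma, adjusted p = 0.856), with a 95% interval of -0.48 to 0.62, so a change of either sign within those limits is not shown to be absent. It was -0.18 in the first set and 0.32 in the second, a difference of 0.50 ± 0.25 (SE) that did not pass (limma, adjusted p = 0.261). Leaving out normal array 3 or normal array 4 gave -0.03 and -0.08.

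**Figure D2:**
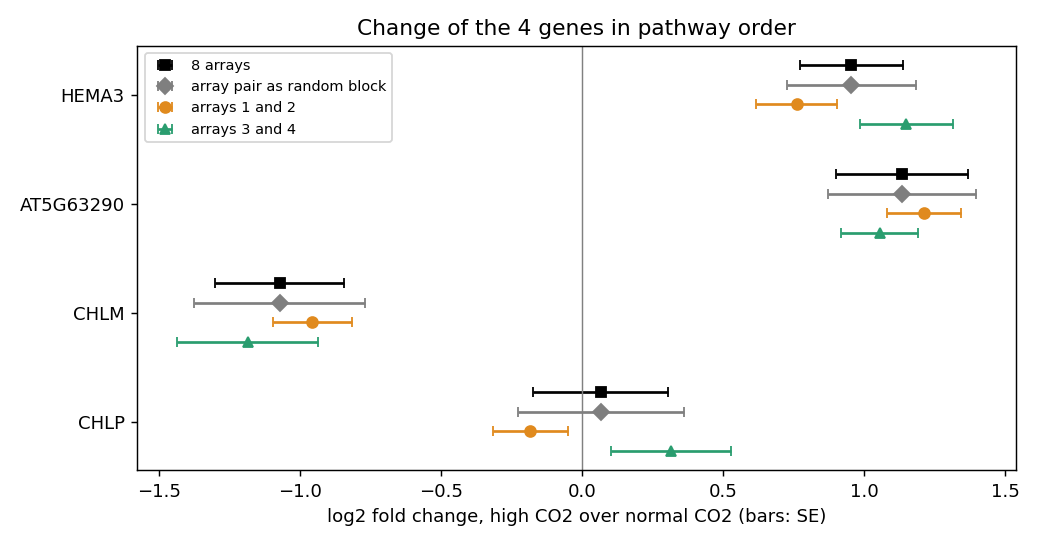
Log2 fold change of high CO2 over normal CO2 for the 4 genes, top to bottom in pathway order, with SE bars, from all 8 arrays, with the array pair as a random block, and from each set of arrays alone. HEMA3 and AT5G63290 lie right of 0 and CHLM left of 0 in both sets, while CHLP has opposite signs in the 2 sets.

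Treating the arrays of a pair as near repeats widened the errors. With the pair as a random block (estimated correlation 0.55), 14% of all probes passed. HEMA3 (limma, adjusted p = 0.032) and AT5G63290 (0.0281) were among them, and CHLM, whose SE grew to 0.30, was not. Averaging the pairs to 2 values per group left 0 probes past the limma threshold, although 775 had an unadjusted p under 0.05, and the adjusted p of these 3 genes was 0.179 to 0.18.

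The 4 genes were then placed among all probes. A larger log2 fold change than that of HEMA3 was found for 406 of the 3154 probes (12.9%), and a larger one than that of AT5G63290 for 318 (10.1%). A lower one than that of CHLM was found for 331 probes (10.5%). CHLP lay near the centre of all probes, whose median log2 fold change was -0.16. Of all called probes 43.9% were higher, and this share was 56.3% with the values as deposited and 55.5% without the trend along the probe numbers. The directions of HEMA3, AT5G63290 and CHLM were the same under each of these scalings, and CHLP was positive under them.

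**Figure D3:**
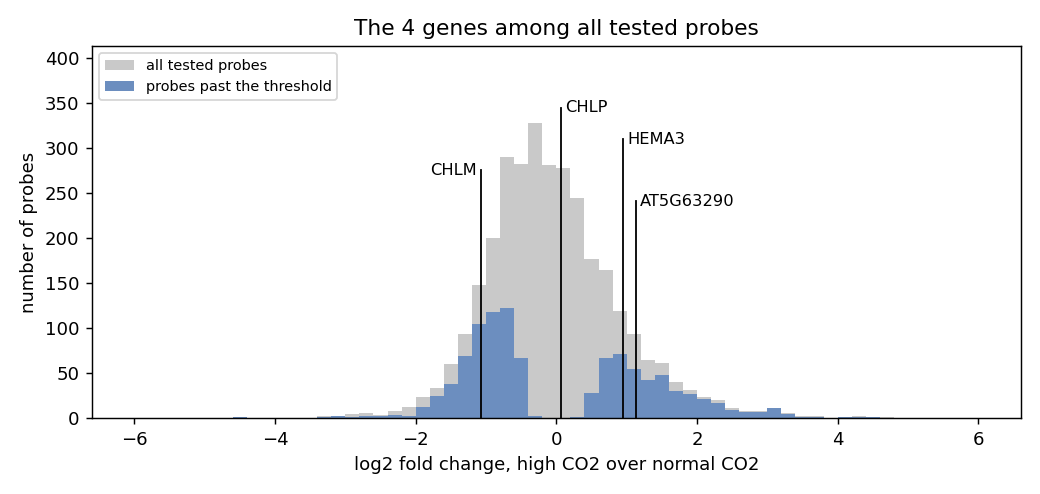
Number of probes by log2 fold change of high CO2 over normal CO2, for all 3154 tested probes (grey) and those past the threshold (blue), with the 4 genes marked by vertical lines. HEMA3 and AT5G63290 lie on the upper shoulder, CHLM on the lower shoulder and CHLP near the centre.

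Whether the genes changed unequally was tested on the log2 ratio of a pair of genes within each array, in which a factor common to an array cancels. Levels of different probes are not comparable, so only the shift of a ratio between the groups is read. All 6 pairs were tested with a two-sided exact permutation test of 4 arrays against 4, whose smallest possible p is 0.0286, and adjusted over the 6. The test takes the 8 arrays as exchangeable, which the likeness within array pairs does not bear out.

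The ratio of HEMA3 to CHLM was higher by 2.03 on the log2 scale at high CO2, with 2.89 ± 0.346 on the high CO2 arrays and 0.866 ± 0.136 on the normal ones (SD, n = 4 each; exact p = 0.0286, adjusted 0.0429). The ratio of AT5G63290 to CHLM was higher by 2.20, with 2.26 ± 0.681 at high CO2 and 0.0536 ± 0.581 at normal CO2 (SD, n = 4 each; exact p = 0.0286, adjusted 0.0429). In both ratios each high CO2 array was above each normal one. Each gene alone already separated the groups, with CHLM in the opposite direction. The separation of these ratios and its p were therefore fixed beforehand and add no support to the single-gene results. In the first and the second set the shift was 1.72 and 2.33 for HEMA3 against CHLM, and 2.17 and 2.24 for AT5G63290 against CHLM.

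CHLM also fell relative to CHLP, with a shift of -1.14 on the log2 scale, at -2.83 ± 0.219 at high CO2 and -1.69 ± 0.283 at normal CO2 (SD, n = 4 each; exact p = 0.0286, adjusted 0.0429). This shift was -0.77 in the first set and -1.5 in the second. HEMA3 rose relative to CHLP by 0.89, with 0.0605 ± 0.186 at high CO2 and -0.828 ± 0.223 at normal CO2 (SD, n = 4 each; exact p = 0.0286, adjusted 0.0429), by 0.94 in the first set and 0.83 in the second. In these ratios the groups did not overlap. The share of other probe pairs without overlap was not computed, and for single probes above 0 on every array it was 38.7%. The ratios that passed reuse the same genes, so they are not separate results.

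AT5G63290 against CHLP shifted by 1.07 but did not pass (exact p = 0.0857, adjusted 0.103), since the ratio spread widely at normal CO2, from -2.34 to -0.86, and overlapped the high CO2 range of -0.94 to 0.10. HEMA3 against AT5G63290 shifted by -0.18 (exact p = 0.629, adjusted 0.629), with -0.45 in the first set and 0.09 in the second. A difference between HEMA3 and AT5G63290 was not detectable with 4 arrays a group, and the test does not show that they changed alike.

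**Figure D4:**
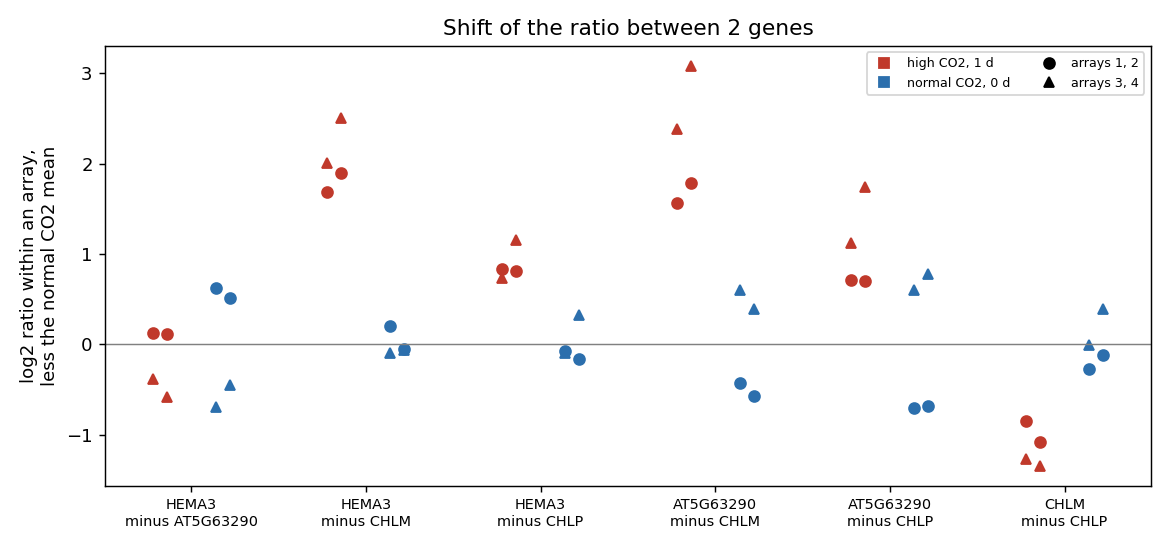
Log2 ratio between 2 genes within each array, less the mean of that ratio at normal CO2, for the 6 pairs, with high CO2 arrays in red left of normal CO2 arrays in blue, circles for arrays 1 and 2 and triangles for arrays 3 and 4. The groups are apart for both ratios to CHLM, for HEMA3 to CHLP and for CHLM to CHLP, and overlap for the other pairs.

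The rest of the pathway was thinly covered. Of 74 genes listed for 5-aminolevulinic acid synthesis, the steps to protoporphyrin, the magnesium branch, the heme, bilin and siroheme branch, chlorophyll breakdown, and phytyl and tocopherol supply, 6 could be tested through a probe naming 1 gene, the 4 above included. Of the 6, 2 rose, 1 fell and 3 did not pass, where 14.3% of all tested probes rose and 18.3% fell. The median log2 fold change of the 6 was 0.25, against -0.16 for all probes. This median lies between the values of CHLP and AT1G78620, neither of which passed, and shows no shift of the pathway. The magnesium branch had 1 of 16 genes, chlorophyll breakdown 0 of 10, so the 4 genes do not stand for their branches. A further 4 probes that carry a pathway gene also carry other gene names and are not described.

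The other listed genes were SIRB and AT1G78620. SIRB encodes sirohydrochlorin ferrochelatase, which inserts iron to make siroheme. Its intensity was 0.0953, 0.133, 0.143 and 0.0915 on high CO2 arrays 1 to 4, against 0.157, 0.156, 0.122 and 0.176 on normal CO2 arrays 1 to 4. The groups overlapped, and the change of -0.53 ± 0.22 log2 units (SE) did not pass (limma, adjusted p = 0.0974). It was -0.30 in the first set and -0.77 in the second, a difference of -0.47 ± 0.41 (SE) that did not pass (limma, adjusted p = 0.496).

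AT1G78620 was listed under phytyl and tocopherol supply, and the gene table gives it no symbol. Its intensity was 0.449, 0.538, 0.629 and 0.488 on high CO2 arrays 1 to 4, against 0.296, 0.296, 0.505 and 0.418 on normal CO2 arrays 1 to 4. Within the first set both high CO2 arrays were above both normal ones, within the second the groups overlapped, and the change of 0.44 ± 0.26 log2 units (SE) did not pass (limma, adjusted p = 0.22). It was 0.94 in the first set and -0.06 in the second, and the difference of -0.995 ± 0.27 (SE) did not pass either (limma, adjusted p = 0.0786).

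The profiles of the 4 genes over the 8 arrays were also set against the other probes with 1 gene name. Likeness was the root mean square difference between mean-centred normalized log2 values over the 8 arrays, among 571 candidates measured on all of them. HEMA3 was closest to FATB, an acyl-ACP thioesterase of plastid fatty acid synthesis (0.20 log2 units), AT3G57120 (0.22) and AT3G13150 (0.22), where the median distance was 0.75. FATB was at 0.452 ± 0.0622 at high CO2 and 0.192 ± 0.0388 at normal CO2 (SD, n = 4 each). AT5G63290 was closest to AT3G47650 (0.19), AT4G19900 (0.20) and AT5G33390 (0.20), with a median distance of 0.84.

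CHLM was closest to AT2G40980 (0.17), AT2G06040 (0.20) and LPA19, a factor of photosystem II assembly (0.21), with a median distance of 0.72. LPA19 was at 0.562 ± 0.028 at high CO2 and 1.11 ± 0.0389 at normal CO2 (SD, n = 4 each). CHLP was closest to AT1G13990 (0.19), THIC of thiamine synthesis (0.20) and AT5G19900 (0.20), with a median distance of 0.59. THIC was at 0.767 ± 0.101 at high CO2 and 0.652 ± 0.226 at normal CO2 (SD, n = 4 each). Among the 4 genes themselves, HEMA3 and AT5G63290 were 0.47 apart, HEMA3 and CHLP 0.48, CHLM and CHLP 0.61, AT5G63290 and CHLP 0.78, HEMA3 and CHLM 1.04, and AT5G63290 and CHLM 1.23. These distances describe 8 arrays that share 2 conditions and 2 sets. The nearest profiles were picked for their small distances, so lying below the median follows from that choice. A link between the genes was not tested.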

How the data were processed

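The deposited intensities run from 0 to 100 on each of the 8 arrays; array type, background treatment and scaling: not given in the sources used here. Zeros counted as missing, other values were put on the log2 scale, and probes with at least 3 values in each group kept (3154 of 3439). Arrays were quantile-normalized, since their medians differed by more than 10% (32.0%). The comparison used limma 3.58.1 (R 4.3.3, functions lmFit and eBayes), checked on simulated data with independent arrays. The likeness within array pairs was not simulated, so the check does not cover it. Log2 fold changes are high CO2 over normal CO2. Each mean ± SD is of the deposited intensity, unless given for log2 ratios. The number of arrays limits the precision.

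Platform gene names were updated through gene identifiers of assembly TAIR10.1 (690 of 692 probes matched). Coordinates are left out, since the probes come without a genome build. Named are the 4 genes, every listed gene on a tested probe with 1 name, and the 3 nearest profiles per gene. These genes and lists were chosen with earlier results of these data known. Figures used Python 3.11.15 and matplotlib 3.10.9.

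The alternatives were a replicate block, median centring, a floor at percentile 5, deposited values unscaled, a pseudocount of 0.0549 (percentile 10 of positive values), eBayes with trend and robust fitting, dropping the 25% of probes with the lowest mean, array pairs as a random block, averaged or as a fixed set block, each set alone, removal of a running median over 51 probes in probe order, and leaving out each array. The interaction with array set, and leaving out arrays for the ratios, were added after seeing the data.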

Additional observations from a re-analysis of the deposited data

How the results depend on the processing

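HEMA3 and AT5G63290 kept direction and call in 20 of 21 alternatives and CHLM in 19, with log2 fold changes of 0.76 to 1.22, 0.97 to 1.25 and -1.19 to -0.85. The exceptions were the averaged array pairs, which left the values at 0.95, 1.13 and -1.07 (adjusted p = 0.179, 0.18 and 0.179 by limma) with 0 probes called and 775 at an unadjusted p under 0.05, and, for CHLM, the random block (-1.07, adjusted p = 0.0536 by limma), with 442 probes called. Over the other 19 alternatives the number of called probes was 729 to 1220, against 1029. Flooring, dropping dim probes, the other variance fit, the blocks and averaging returned the same 3 fold changes, so they could not test direction. The groups do not overlap for these 3 genes, so leaving out an array or using 1 set could hardly reverse it either. CHLP, never called, was at -0.18 in arrays 1 and 2 alone and at -0.0787 to 0.205 on leaving out each array (-0.0345 without normal array 3). AT1G78620 was at 0.94 in arrays 1 and 2 alone, where it passed, and at -0.0554 in arrays 3 and 4 alone. SIRB, at -0.53, ranged from -0.77 in arrays 3 and 4 alone to -0.30 without the trend along the probe numbers, and passed only without high CO2 array 2 (-0.69, adjusted p = 0.0434 by limma). On leaving out each array the shift of HEMA3 against AT5G63290 was -0.404 to 0.0332, positive without normal array 1, and that of AT5G63290 against CHLP 0.84 to 1.32, passing only without normal array 4 (exact permutation test, adjusted p = 0.0343). For the 4 ratio shifts that passed, the groups do not overlap, so keeping the call without 1 array was likely and does not show stability. These shifts also passed with the values as deposited. Removing the trend along the probe numbers moved the median of all probes by 0.13; the cause of these changes was not tested.

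Whether replicate numbers pair the arrays is not labelled. Deviations from the group means correlated only weakly between arrays of equal number, at 0.0385, 0.0926, 0.133 and 0.0526. The replicate block called 845 probes, with no call among the 4 genes changed. Their log2 fold changes stayed at 0.95, 1.13, -1.07 and 0.07, which such a block cannot alter for probes measured on all 8 arrays. Across groups, 7 of the 8 arrays were closest to the array of equal number, a hint from the data and not from the design.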
